A study of Mus musculus with 12 samples.

Results

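The EGF family ligands and receptors described here were 10 mouse genes, 7 ligands (Areg, Ereg, Hbegf, Egf, Tgfa, Btc and Nrg1) and 3 receptors (Egfr, Erbb2 and Erbb3). They were chosen by gene name, through all 12 probes that carry one of these names among 39429 probes on the array. Messenger RNA was measured in macrophages, tissue phagocytes, that had been sorted from pancreatic tumor and from normal pancreas, on 6 single-colour arrays per group. The question is whether sorted tumor macrophages carry more or less of these transcripts than macrophages of the healthy organ. All mice of both groups were labelled as female, 4 to 5 months old and of strain C57/B6, with the genotype not provided. The protocol speaks of implanted tumors for all samples, whereas the design text mentions wild-type, KPC and FLT3-CRE/LSL-YFP animals without tying a sample to any of them. KPC mice develop pancreatic ductal adenocarcinoma from engineered alleles, and FLT3-CRE/LSL-YFP mice report a blood cell lineage.

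EGF family ligands are made as membrane proteins, and metalloproteases such as ADAM17 and ADAM10 release them from the cell surface. Areg (amphiregulin), Egf and Tgfa bind the receptor encoded by Egfr, Hbegf, Ereg (epiregulin) and Btc (betacellulin) bind it and the ErbB4 receptor, and Nrg1 (neuregulin 1) binds ErbB3 and ErbB4. ErbB2 has no known ligand of its own and pairs with the other receptors, while ErbB3 has an impaired kinase and signals through its partners. In the pancreas this family is known for its part in the change of acinar cells to duct-like cells and in tumor growth, and macrophages are a known source of several of its ligands.

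The probe sequences below are those behind the results for Nrg1, Areg, Egfr and Erbb3, as the array files give them, 5′ to 3′. Capitals mark a stop codon at the 3′ end of an open frame, and the Nrg1 and Erbb3 probes read the last codons of their coding sequences. The Areg probe and the Egfr probe tested also hold an open frame over their length. Only the first 30 of the 60 bases of the second Egfr probe are shown, and its last bases, not shown, are a stop codon in frame with its first.
Nrg1 probe: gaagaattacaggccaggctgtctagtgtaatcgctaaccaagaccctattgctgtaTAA
Areg probe: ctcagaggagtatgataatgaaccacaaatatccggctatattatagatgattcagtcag
Egfr probe tested: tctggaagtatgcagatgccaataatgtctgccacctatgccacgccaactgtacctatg
Egfr second probe: gaagtgtggccatctgggtacgttcaatgg
Erbb3 probe: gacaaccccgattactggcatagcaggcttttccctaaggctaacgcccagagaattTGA
On mouse build mm9, by the array's own annotation, which gives no exon or intron, the Nrg1 probe lies at chr8:32928500-32928559 (minus strand) and the Areg probe at chr5:91570090-91570149 (plus strand). The Erbb3 probe lies at chr10:128006424-128006483 (minus strand). The Egfr probes lie at chr11:16783556-16783615 and chr11:16787172-16787231 (plus strand), and both carry the accession of the same Egfr transcript. The other Egfr probe, at chr11:16813815-16813874, carries the accession of another Egfr transcript.

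Levels are given as log2 of the scanner's processed signal minus the 75th percentile of the same array, so 0 is the level that 75% of the probes of an array do not exceed. In each group 2 arrays share a sample name (replicates 4 and 6 of tumor, 2 and 3 of normal pancreas) and were averaged, which left 5 samples per group. A probe counts as well above background on an array where the scanner software flags it so. On tumor arrays the 75th percentile was 1091 to 1398 signal units and 51.1% to 55.6% of probes were well above background, against 398 to 1547 units and 39.3% to 58.7% on normal arrays. Normal replicates 2 and 3 were the dimmest arrays and had the fewest probes well above background. Arrays that share a name differed over the 8 member probes tested by 0.02 to 0.50 for tumor and by 0.02 to 0.95 for normal pancreas (log2 units).

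Detection differed widely over the family. Hbegf and the Egfr probe tested were well above background on all 12 arrays. Areg was so on 6 of 6 tumor and 5 of 6 normal arrays, and Erbb3 on 5 of 6 tumor and 6 of 6 normal arrays. Nrg1 was detected on 6 of 6 tumor arrays and 1 of 6 normal arrays, whereas Erbb2 was detected on 0 of 6 tumor arrays and 4 of 6 normal arrays. Tgfa was detected on 4 of 6 arrays in either group and Egf on 2 of 6 tumor arrays and 1 of 6 normal arrays. Ereg and Btc were not well above background on any array. A test needed a probe detected on 3 or more arrays of tumor or of normal pancreas, which 8 of the 12 probes and 7 of the 10 genes met.

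**Figure D1:**
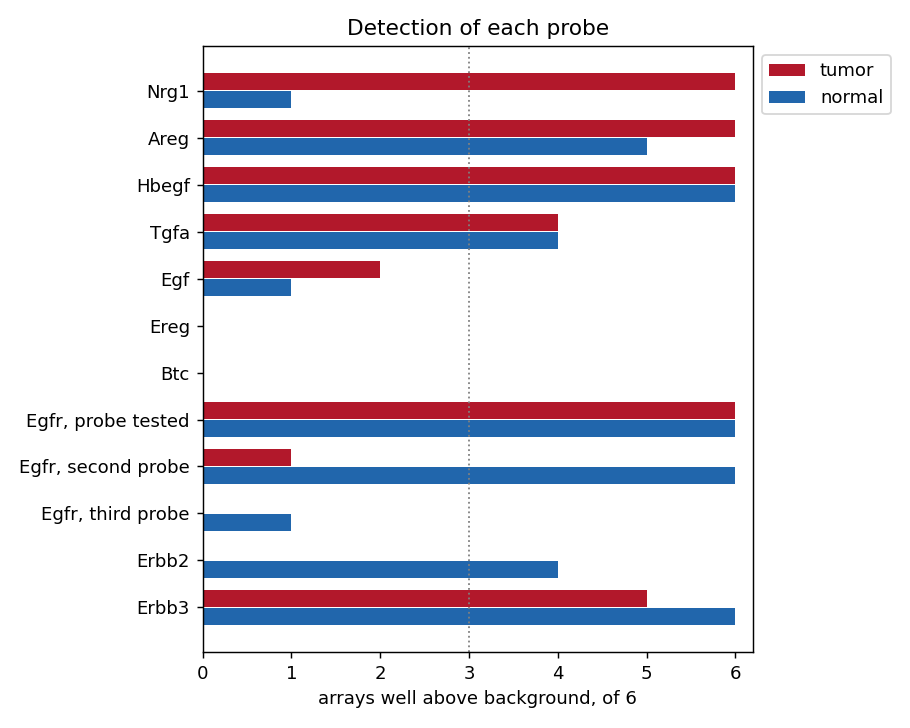
Number of arrays, of 6 per group, on which each of the 12 EGF family probes was well above background, with tumor bars above normal bars; the dotted line is the minimum of 3 arrays for a test. Nrg1 has 6 tumor arrays and 1 normal array, Erbb2 has 0 and 4, and Ereg and Btc have 0 in both groups.

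Of the 7 members tested, 1 (Nrg1) was higher in tumor at an adjusted p under 0.05 and 0 were lower. Over all 16402 genes tested the background was 0.854% called in either direction, 0.341% higher and 0.512% lower. At an unadjusted p under 0.05 stood 3 of the 7 (Nrg1, Areg and Erbb2), and 2126 of all 16402 genes. Taken as measured, the 5 tumor samples lay wholly above the 5 normal samples for Nrg1 alone among the members tested, and wholly below them for 0, whereas 1.76% and 1.66% of all genes did so. The tumor minus normal difference was positive for 2 members and negative for 5, with a median of -0.72 over the 7 members against -0.0044 over all genes (log2). With 7 members these are counts over few genes.

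**Figure D2:**
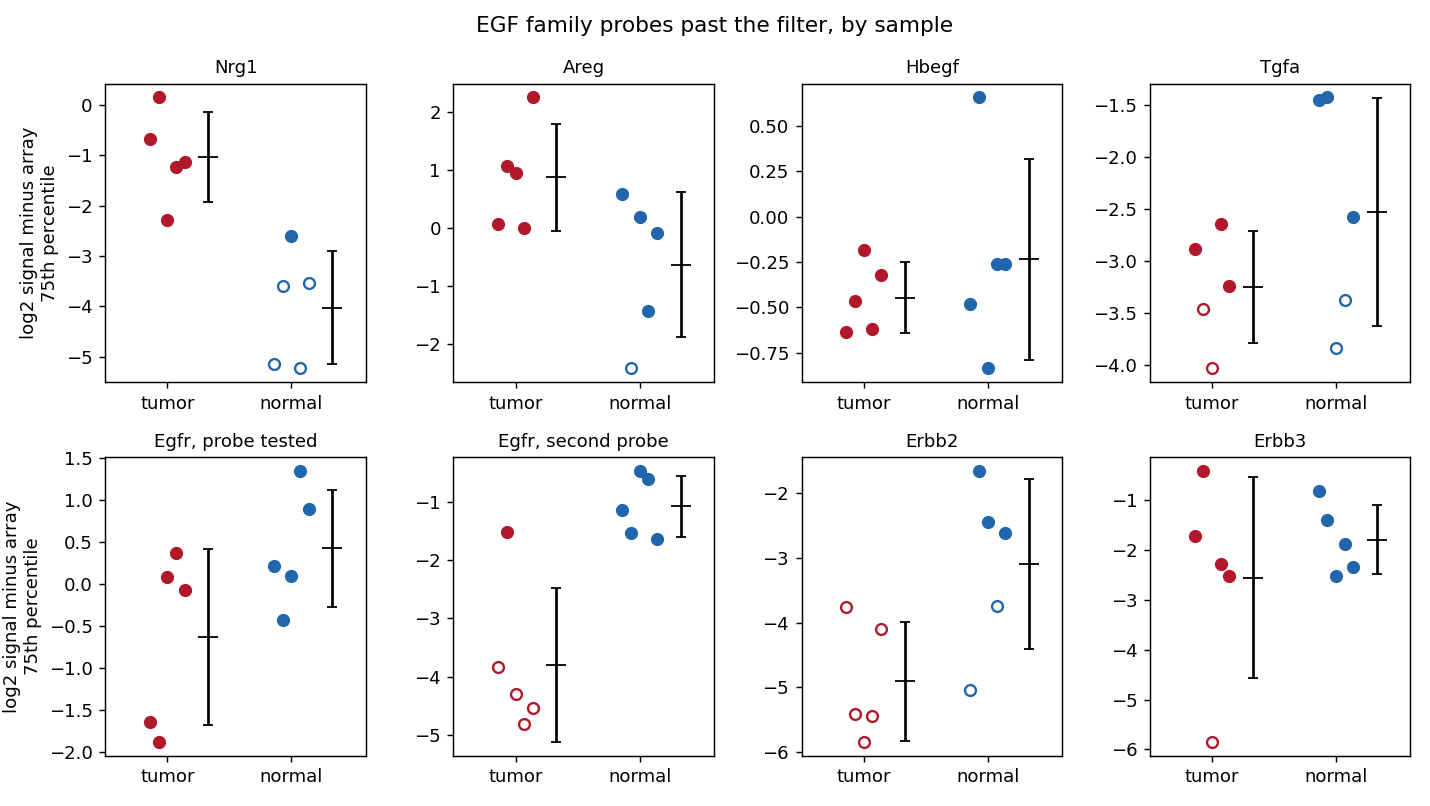
Log2 signal minus the array's 75th percentile for the 8 probes tested, 1 panel per probe with its own vertical axis; each point is a sample, filled where all its arrays were well above background and open otherwise, and the black bar is the mean with its SD (5 samples per group). For Nrg1 every tumor point lies above every normal point, but 4 of 5 normal points are open, that is at background.

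Among the ligands, Nrg1 was called higher in tumor macrophages, with its normal values mostly at background. Its levels were -0.68, 0.16, -2.28, -1.24 and -1.12 in tumor replicates 1, 2, 3, 4-6 and 5, against -5.14, -3.60, -2.61, -5.23 and -3.54 in normal replicates 1, 2-3, 4, 5 and 6. As measured the groups did not overlap, with tumor replicate 3 the lowest of the tumor samples, but normal replicate 4 was the only normal array well above background. As processed signal the Nrg1 probe read 287 to 1218 on tumor arrays and 24.4 to 158 on normal arrays. The means were -1.03 ± 0.89 in tumor and -4.02 ± 1.13 in normal pancreas (SD, 5 samples each), a difference of 2.99 ± 0.58 (log2, SE; 95% interval 1.72 to 4.27) with a limma adjusted p of 0.0445. Since Nrg1 entered the test through its tumor arrays and 5 of 6 normal arrays were at background, neither the size of the difference nor the separation of the groups is settled. With values under the dimmest detected signal of an array raised to that signal, an alternative chosen after the values were seen, the means were -1.03 ± 0.89 in tumor and -2.94 ± 0.61 in normal pancreas. The difference was then 1.91 (3.76-fold on the signal scale), missed the threshold (limma adjusted p = 0.0606), and tumor replicate 3 lay below normal replicate 2-3, the sample with the dimmest arrays.

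The Nrg1 difference was positive within each of the 3 slides, at 3.92, 1.49 and 3.25 (log2, limma adjusted p = 0.347, 0.588 and 0.461), and was 2.93 in a model that held slide and sample name (limma adjusted p = 0.0491). With normexp background correction it was 1.03 and missed the threshold (limma adjusted p = 0.140). It also missed the threshold without 8 of the 10 samples taken in turn, with limma adjusted p up to 0.116, while the difference stayed between 2.69 and 3.35. Over all alternatives the limma adjusted p of Nrg1 ran from 0.00941 to 0.588.

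Areg was detected more evenly and did not pass the test. Its levels were 0.07, 1.08, 0.96, 0.00 and 2.26 in tumor replicates 1, 2, 3, 4-6 and 5, against 0.59, -2.41, 0.19, -1.43 and -0.08 in normal replicates 1, 2-3, 4, 5 and 6. Tumor replicate 5 was the highest of all and normal replicates 2-3 and 5 were the lowest, and the remaining samples of the groups overlapped. The means were 0.87 ± 0.92 in tumor and -0.63 ± 1.25 in normal pancreas (SD, 5 samples each), a difference of 1.50 ± 0.62 (log2, SE; 95% interval 0.13 to 2.87; limma adjusted p = 0.342). On the signal scale the difference is 2.83-fold, and it was 1.69, 1.39 and 1.89 within the 3 slides (log2). Normal replicate 2, among the dimmest arrays, was the only array on which Areg was not well above background.

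Hbegf, which encodes a heparin-binding ligand, was the most even of the members. Its levels lay between -0.64 and -0.18 in the 5 tumor samples, with a mean of -0.45 ± 0.19, and between -0.84 and 0.66 in the 5 normal samples, with a mean of -0.24 ± 0.55 (SD). The tumor range lay inside the normal one. The difference was -0.21 ± 0.28 (log2, SE; 95% interval -0.83 to 0.41; limma adjusted p = 0.782), so the interval leaves room for a change of either sign below 1 log2 unit. Normal replicate 2-3 was the one high sample (0.66), and without it the difference was 0.014. Its processed signals on the arrays of that sample, 590 and 723, lay within the 540 to 1293 of all normal arrays, while the 75th percentile of those arrays was the lowest.

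Tgfa, read by 10 replicate spots at chr6:86224838-86224897, lay close to background in both groups. It was well above background on 4 of 6 arrays in tumor and on 4 of 6 in normal pancreas. Its levels were -2.88, -3.46, -4.03, -2.65 and -3.24 in tumor replicates 1, 2, 3, 4-6 and 5, against -1.45, -1.42, -3.83, -3.38 and -2.58 in normal replicates 1, 2-3, 4, 5 and 6. Normal replicates 1 and 2-3 stood above the other samples, and the rest overlapped. The difference was -0.72 ± 0.50 (log2, SE; 95% interval -1.82 to 0.38; limma adjusted p = 0.575), and within slide 3 it was 0.028.

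Egf, the ligand that names the family, was not tested. Its probe, with 10 spots at chr3:129380826-129380885, was well above background on 2 tumor arrays, both of the sample with replicates 4 and 6, and on normal replicate 6. On those arrays 6, 9 and 8 of the 10 spots were well above background, with processed signals of 132, 167 and 169. On the other 9 arrays 0 of the 10 spots were.

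Of the ligand genes, Ereg, Areg and Btc lie with Epgn (epigen, another EGF receptor ligand) in a cluster on chromosome 5. On mm9 the Ereg probe starts 47.5 kb, the Epgn probe 106 kb and the Btc probe 217 kb from the start of the Areg probe. Within this cluster detection was uneven. Areg was well above background on 11 of 12 arrays, Ereg and Btc on 0 and Epgn on 1, a normal array. Processed signals of Ereg were 25.9 to 49.7 on tumor arrays and 24.9 to 28.5 on normal arrays, and those of Btc 20.1 to 45.3 and 20.1 to 36.6. A transcript below the array's background may still be present at a level not detectable here.

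Among the receptors, the Egfr probes gave different answers. The probe tested, which had the highest mean of the 3, read -1.65, -1.88, 0.09, 0.37 and -0.07 in tumor replicates 1, 2, 3, 4-6 and 5, against 0.22, -0.42, 0.10, 1.35 and 0.90 in normal replicates 1, 2-3, 4, 5 and 6. Tumor replicates 1 and 2 stood below all other samples, and the other 3 tumor samples lay within the normal range. The difference was -1.06 ± 0.51 (log2, SE; 95% interval -2.19 to 0.07; limma adjusted p = 0.421), and it was -1.43, 0.029 and -0.85 within slides 1, 2 and 3.

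The second Egfr probe read -3.84, -1.51, -4.30, -4.81 and -4.55 in tumor replicates 1, 2, 3, 4-6 and 5, against -1.13, -1.52, -0.46, -0.61 and -1.64 in normal replicates 1, 2-3, 4, 5 and 6. It was well above background on all 6 normal arrays and on 1 tumor array, replicate 2, and that sample alone of the tumor group lay within the normal range. The means were -3.80 ± 1.33 in tumor and -1.07 ± 0.53 in normal pancreas (SD, 5 samples each), a difference of -2.73 ± 0.57 (log2, SE; 95% interval -3.99 to -1.46). Over the 22446 probes tested, of which 0.829% were called, its limma adjusted p was 0.0615 and missed the threshold. It passed without tumor replicate 2 (-3.30, limma adjusted p = 0.00866) and in a model that held slide and sample name (-2.76, limma adjusted p = 0.0478). Within slides 1, 2 and 3 the difference was -1.43, -3.51 and -3.51. Taking the mean of both Egfr probes for the gene gave -1.89 (limma adjusted p = 0.0122), so whether Egfr passes this test depends on the probe rule. The second probe ends in a stop codon and lies before the other Egfr probe, that of another transcript, on the plus strand. Which transcript forms each probe reads could not be looked up. The difference of the second probe therefore need not hold for that other transcript, nor for the receptor as a whole. Over all alternatives that kept the probe the limma adjusted p ran from 0.222 to 0.986 for the probe tested and from 0.00866 to 0.630 for the second probe. The second probe also passed with its tumor values raised to the detection floor, at -2.12 (limma adjusted p = 0.0402). Since this probe entered the test through its normal arrays and was detected on 1 of 6 tumor arrays, the size of its difference is not settled. The settings that it passed reuse the same arrays and do not settle it either.

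The remaining Egfr probe, with 10 spots, was well above background on 1 array, normal replicate 5, where 8 of 10 spots were and the processed signal was 164. Its signals on tumor arrays were 27.8 to 28.8.

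Erbb2, the ligandless partner receptor, was read by 10 spots at chr11:98298103-98298162 and was detected in normal samples alone. Its levels were -3.76, -5.41, -5.85, -5.44 and -4.09 in tumor replicates 1, 2, 3, 4-6 and 5, against -5.04, -1.65, -2.45, -3.74 and -2.61 in normal replicates 1, 2-3, 4, 5 and 6. Normal replicates 2-3, 4 and 6 stood above every tumor sample, and normal replicate 1 lay within the tumor range. Normal replicate 5 (-3.74), an array at background, lay barely above the highest tumor sample, replicate 1 (-3.76). No tumor array was well above background, although 2 of 10 spots were on tumor replicate 1. The means as measured were -4.91 ± 0.92 in tumor and -3.10 ± 1.32 in normal pancreas (SD, 5 samples each), and the difference did not pass the test (limma adjusted p = 0.265). Since Erbb2 entered the test through its normal arrays alone, the size of the difference is not settled. With each tumor array set at its dimmest detected signal and the normal arrays as measured, the means were 1.39-fold apart. The normal mean includes 2 arrays at background, so this fold is no sure minimum. The difference was -1.36, -3.37 and -1.69 within slides 1, 2 and 3 (log2).

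Erbb3, the kinase-impaired receptor of Nrg1, overlapped between the groups. Its levels were -1.72, -0.43, -5.85, -2.29 and -2.53 in tumor replicates 1, 2, 3, 4-6 and 5, against -0.84, -1.40, -2.54, -1.88 and -2.35 in normal replicates 1, 2-3, 4, 5 and 6. Tumor replicate 3 was the one array where Erbb3 was not well above background, with a processed signal of 24.2. The difference was -0.76 ± 0.83 (log2, SE; 95% interval -2.60 to 1.08; limma adjusted p = 0.732). Without tumor replicate 3 it was 0.059.

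**Figure D3:**
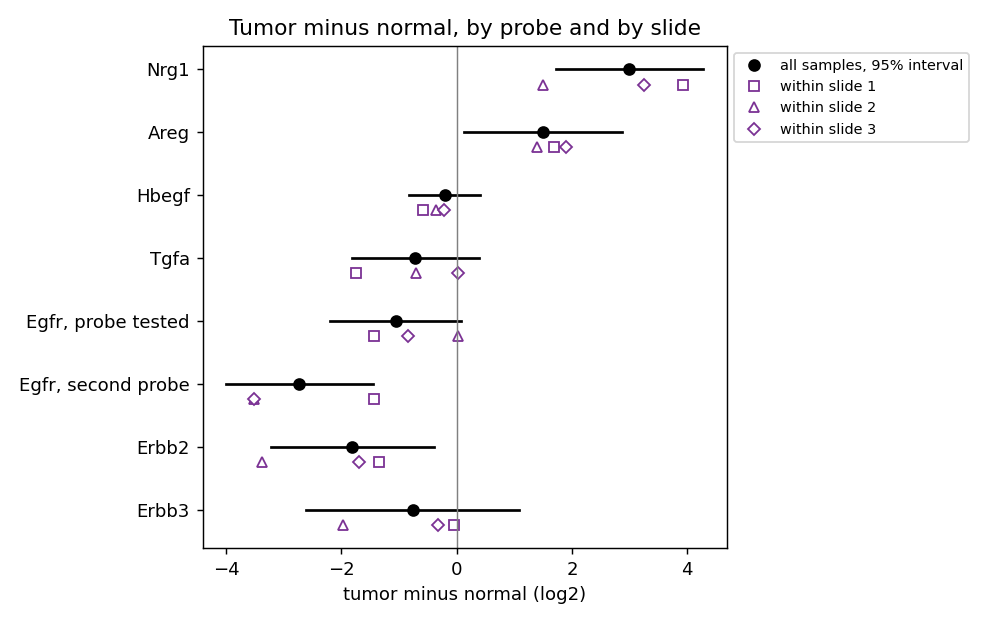
Tumor minus normal difference in log2 signal for the 8 probes tested; black points and lines are the limma estimates with 95% intervals over 5 samples per group, and open symbols are the differences within each of the 3 slides. Nrg1, Areg, Hbegf, the second Egfr probe, Erbb2 and Erbb3 keep their sign within every slide, while the Egfr probe tested reaches 0.029 and Tgfa 0.028 within a slide. The slides share samples and are not independent.

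The other family members were the ligands Epgn, Nrg2, Nrg3 and Nrg4 and the receptor Erbb4. Of these 5 genes 2 were tested and 0 passed. Nrg2 was -0.997 ± 0.44 (log2, SE; limma adjusted p = 0.366) and Nrg4 was -0.04 ± 0.63 (limma adjusted p = 0.987). The Nrg3 and Erbb4 probes stayed at background on all arrays, so of the receptors known to bind Nrg1 the arrays detected Erbb3 alone.

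None of the pathway lists had a member past the threshold in limma, against 0.854% of all genes. At an unadjusted p under 0.05 stood 4 genes of ligand shedding, 1 of adaptors and early signalling, 2 of feedback inhibitors and 3 of transcriptional targets, where 2126 of all 16402 genes did. Ligand shedding covers the ADAM proteases, their iRhom partners and a TIMP inhibitor, and all 8 of its genes were tested, with 5 positive and 3 negative differences and a median of 0.34. Its smallest p-values were those of Rhbdf1, which encodes iRhom1, at -1.49 ± 0.34 (log2, SE; limma adjusted p = 0.0819), and of Adam12 at -0.94 ± 0.24 (limma adjusted p = 0.128). Adam12 did not overlap, at -2.68 to -1.93 in the 5 tumor samples and -1.89 to -1.06 in the 5 normal samples, as 1.66% of all genes did in that direction. Rhbdf1 levels were -0.76 to 0.39 in the 5 tumor samples and 0.15 to 1.52 in the 5 normal samples, and the groups overlapped through tumor replicate 4-6 and normal replicate 2-3. The iRhom2 gene Rhbdf2 had 0.77 ± 0.32 (limma adjusted p = 0.338), and the main sheddases Adam17 and Adam10 had 0.30 ± 0.23 and 0.78 ± 0.30 (limma adjusted p = 0.609 and 0.308).

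Receptor adaptors and early signalling genes had 20 of 22 tested, with 16 positive and 4 negative differences and a median of 0.23. Their smallest p-values were those of the kinase genes Akt1, 0.48 ± 0.22 (limma adjusted p = 0.383), and Src, 0.64 ± 0.29 (limma adjusted p = 0.385). Feedback inhibitors of EGF receptor signalling had 14 of 20 tested, with 5 positive and 9 negative differences and a median of -0.22. Ptpn1, a tyrosine phosphatase that acts on the receptor, had 1.01 ± 0.21 (log2, SE; limma adjusted p = 0.0583), with 2.40 to 2.71 in the 5 tumor samples and 1.17 to 1.91 in the 5 normal samples. The Ptpn1 groups did not overlap, as 1.76% of all genes did in that direction, and the test missed the threshold. Dusp5, an ERK phosphatase, had 1.23 ± 0.49 (limma adjusted p = 0.321).

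Transcriptional targets of EGF receptor and ERK signalling were all tested, 16 genes, with 8 positive and 8 negative differences and a median of 0.00. Fosl2, an AP-1 subunit, had 0.88 ± 0.32 (log2, SE; limma adjusted p = 0.276), and Egr3, an early growth response factor, had -0.75 ± 0.29 (limma adjusted p = 0.312). The target genes as a list were thus centred on the median of all genes.

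**Figure D4:**
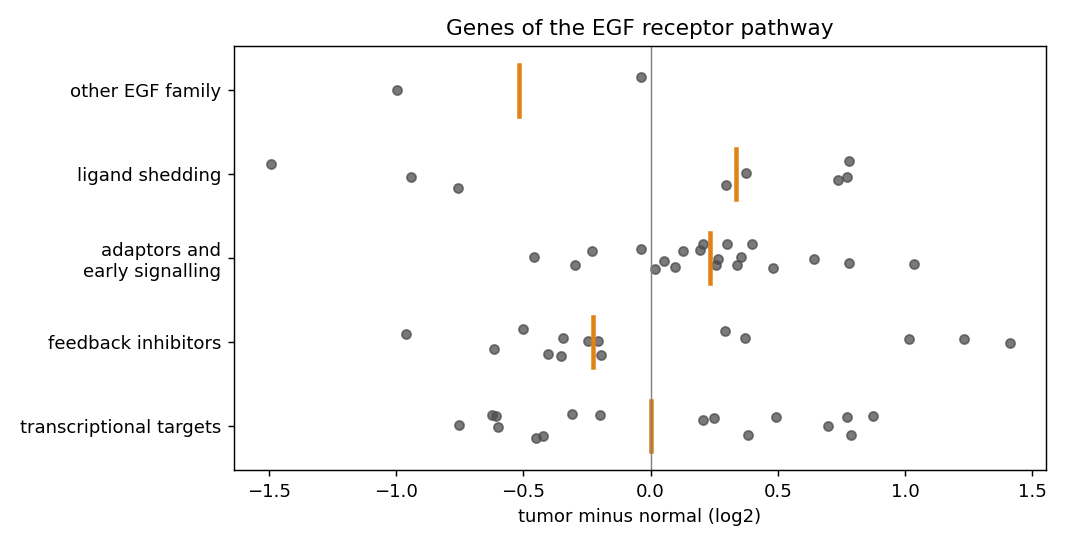
Tumor minus normal difference in log2 signal for each tested gene of the 5 lists of other family and pathway genes (grey points, spread vertically only to separate them), with the list's median as an orange bar. No point passed an adjusted p under 0.05, and the medians lie between -0.52 and 0.34.

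Markers of acinar, islet, monocyte and neutrophil cells moved with the groups, while the shares of signal held by the other marker lists overlapped. In bulk RNA fewer cells of a type and less RNA per cell cannot be told apart. The 12 macrophage markers were all tested with 0 called by limma, 1 at an unadjusted p under 0.05 and a median difference of 0.09, and Adgre1 and Fcgr1 were well above background on all 12 arrays. As a share of the signal summed over tested genes they held 0.511% to 0.591% in tumor samples and 0.474% to 0.607% in normal samples. Of the acinar markers 15 of 16 were tested and 11 were called lower, against 0.512% of all genes. Their median was -7.02, with Cela3b at -6.48 and Cela1 at -7.86. Their share was 0.00586% to 0.199% in tumor samples against 0.451% to 2.56% in normal samples. The mean levels of Erbb2 and the second Egfr probe were lower in tumor too, but within the groups the orders matched only in part. Normal replicate 2-3 was highest in acinar share and in Erbb2 level, but normal replicate 6, lowest in share, had an Erbb2 of -2.61. The Erbb2 rank of normal replicate 2-3 rests on the percentile subtracted from each array, which was lowest on its arrays. As processed signal Erbb2 read 149 and 116 on those arrays, below normal replicates 4 (177) and 6 (253). Tumor replicate 2 had the highest tumor value of the second Egfr probe (-1.51) with a share of 0.0138%. Tumor replicate 5, highest in tumor share, read -4.55. The islet marker share was also lower in tumor samples, at 0.00432% to 0.00708% against 0.0114% to 0.255% in normal samples. The islet share was highest in normal replicate 2-3, which also had the highest Erbb2 level, though not the highest processed signal. The order of the other normal samples differed. Normal replicate 1 had an islet share of 0.0610% with the lowest normal Erbb2 (-5.04). Normal replicate 4 had the lowest normal share (0.0114%) with an Erbb2 of -2.45. The part of these cells in those values was not tested.

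Of the monocyte markers 9 of 10 were tested and 3 were called higher, F10 and Hp among them, against 0.341% of all genes. The 9 had 8 positive and 1 negative differences, with a median of 1.69. They held 0.0648% to 0.107% of summed signal in tumor samples against 0.0296% to 0.0423% in normal samples, higher in tumor as Nrg1 was. Within the groups the orders matched only in part. Tumor replicate 2 was highest in both and normal replicate 5 lowest in both. But tumor replicate 3, with the lowest tumor Nrg1 (-2.28), had a share of 0.104%. Normal replicate 1, with an Nrg1 of -5.14, had 0.0407%. Of the neutrophil markers 8 of 10 were tested and 1 was called higher (Retnlg), against the same 0.341%. The 8 had 6 positive and 2 negative differences and a median of 1.92. Their shares were 0.0205% to 0.0274% in tumor and 0.0136% to 0.0203% in normal pancreas. Csf3r, the neutrophil marker most often detected, had a difference of 0.01 and Cxcr2 of 1.57. The part of these cells in the Nrg1 difference was not tested.

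Nerves and their Schwann cells are a known site of Nrg1 signalling. Of their markers 7 of 9 were tested with 0 called by limma, 4 at an unadjusted p under 0.05, a median of 0.47 and shares of 0.0416% to 0.0546% in tumor and 0.0381% to 0.0504% in normal pancreas. Sox10 (0.86) and Ncam1 (-0.91) were well above background on all 12 arrays, and Cdh19 on 0. The other markers at an unadjusted p under 0.05, named after their values were seen, were Ngfr (2.46, 6 of 6 tumor and 3 of 6 normal arrays) and Gfap (1.64, 6 of 6 tumor and 2 of 6 normal arrays), so 3 of these 4 were positive beside Nrg1. Their part in the Nrg1 difference was not tested. Ductal and tumor epithelial markers had 12 of 14 tested, 0 called by limma, 1 at an unadjusted p under 0.05 and a median of -0.51, with Cldn7 among the most often detected. Their shares were 0.0210% to 0.0516% in tumor and 0.0186% to 0.0808% in normal pancreas, and Cdh1 and Sox9 were detected on 0 arrays.

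The remaining marker lists had 0 called by limma. At an unadjusted p under 0.05 stood 4 of 5 tested islet markers, 1 each of 7 endothelial, 6 dendritic cell, 5 B and plasma cell and 4 mast cell, basophil and eosinophil markers, and 0 of 7 fibroblast and 7 T and NK cell markers. Medians were -2.10 for islet cells (Ppy and Ins2 most often detected), -0.04 for fibroblasts and stellate cells (Dcn and Acta2) and -0.57 for endothelium (Tek and Kdr). Dendritic cells had a median of 0.22 (Flt3 and Siglech), T and NK cells of -0.34 (Cd3e and Nkg7), B and plasma cells of -0.36 (Cd79b and Pax5), and mast cells, basophils and eosinophils of 0.77. In that list the most often detected markers, Tpsb2 (-0.07) and Prg2 (-0.72), were negative, and Siglecf (2.83, 4 of 6 tumor and 0 of 6 normal arrays) and Kit (1.61, 5 of 6 tumor and 1 of 6 normal arrays), named after their values were seen, were positive.

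**Figure D5:**
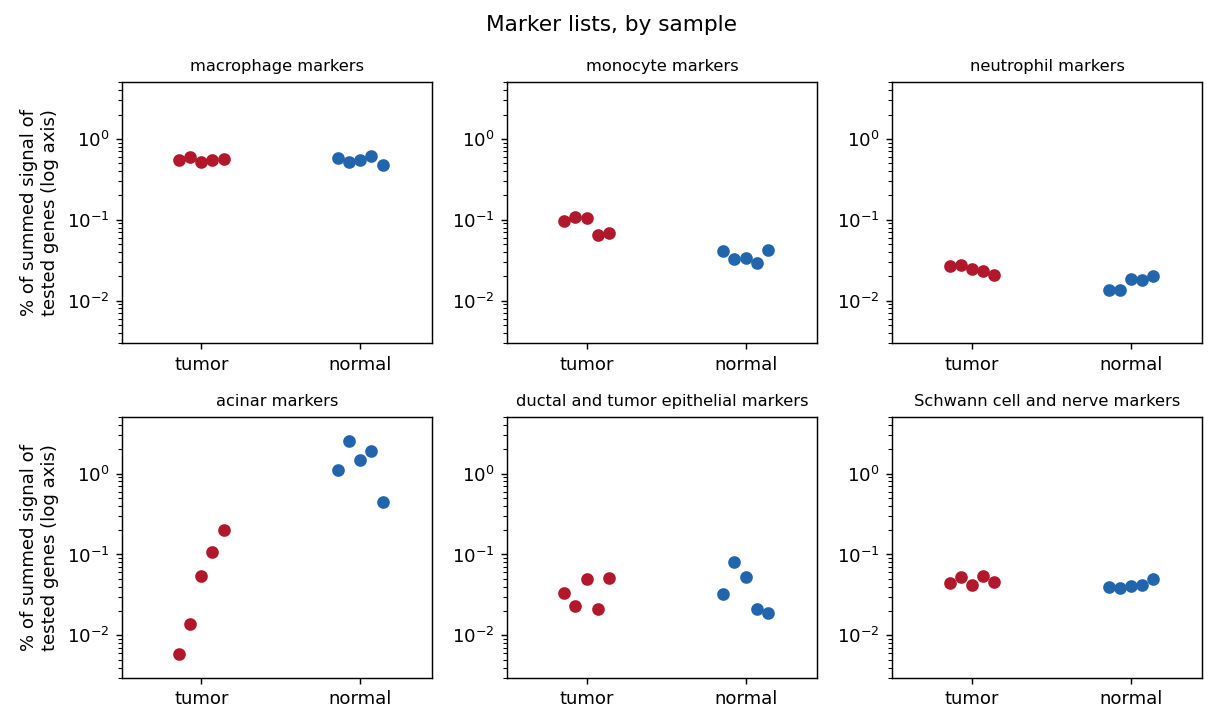
Share of the summed signal of all tested genes held by 6 marker lists, in percent on a log axis, with 1 point per sample and 5 samples per group. Monocyte and neutrophil marker shares are higher in every tumor sample than in every normal sample, acinar shares are lower in every tumor sample, and macrophage shares overlap.

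The genes whose pattern over the 10 samples was most like that of a member were named by the root mean square difference of centred log2 values, over members well above background on all 6 arrays of a group. For Nrg1 these were F10 (0.74), Cd300lf (0.79) and Stx3 (0.80). For Areg they were Spdya (0.39), Lmnb1 (0.48) and Susd6 (0.51), and for Hbegf Pelo (0.18), Tceal8 (0.18) and Safb2 (0.19). For the Egfr probe tested they were Myo19 (0.37), Dph3 (0.38) and Taar6 (0.38), and for Erbb3 Map3k7 (0.59), Gabbr1 (0.80) and Snx21 (0.83). A member with a wide spread over samples, such as Nrg1 or Erbb3, has larger distances by construction, so the values rank genes for 1 member and not between members.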

How the data were processed

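Per the labels' protocols, cells were sorted into lysis buffer, and their total RNA was amplified as cDNA and labelled with Cy5, so a fold is one of amplified signal. Per the file headers, the authors scanned one dye, red, and extracted spots with Agilent Feature Extraction 11.5.1.1. The deposited intensity values used here are the processed signals, with background subtracted. A log2 table that the authors deposited beside them equalled the quantile-normalized log2 processed signal (median absolute difference 0.00012) and had column medians of 7.08.

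Spots flagged as outliers (0.401%) were left out, spots of a probe were averaged as log2, and each array's 75th percentile was subtracted. A probe with several spots counted as well above background where a share of at least 0.5 of them was. Probes were named by accession or symbol through the RefSeq gene table of GRCm38.p6, whose coordinates were not used. Each of 16402 genes stands by its brightest probe, judged by the mean over the 12 arrays. The comparison used limma 3.58.1 in R 4.3.3 (two-sided, Benjamini-Hochberg over all genes or all 22446 probes, adjusted p under 0.05). Where a group had no array well above background, a fold was also taken with each of its arrays at the dimmest detected signal of that array, or the probe's own where higher. The other group stood as measured in that fold. The fits were tested on simulated data.

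The arrays lay on 3 slides, each with its own scan and 2 arrays of either group. Tumor replicates 4 and 6, of 1 sample name, lay on slides 2 and 3, and normal replicates 2 and 3, also of 1, on slides 1 and 2. The differences within slides are therefore not independent. Nothing in the labels says that sample names are separate animals, so the p-values rest on a spread between samples that may be technical, and the number of arrays limits the precision. The members, lists and tests were chosen with earlier results of these data known. The text names all 10 members, the 2 genes of each pathway list with the smallest p (and the main sheddases and Rhbdf2, named after their values were seen), the 2 markers of each list well above background on most arrays (ties by p) with those past the threshold, and the 3 genes nearest in pattern to a member, clone and locus names left out. A few genes under this rule are not reported here. The alternatives tried were background correction, scaling, the authors' log2 table, the filter, the probe rule, shared sample names, slides, outlier flags, the variance model and leaving out each sample in turn.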

Additional observations from a re-analysis of the deposited data

How the results depend on the processing

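The count of 140 genes past the threshold in limma was 213 with normexp background correction, 236 with a trended and robust variance and 460 with 12 arrays as separate samples. It was 0 within slides 1, 2 and 3, where 1590, 1565 and 953 genes had an unadjusted p under 0.05. It ran from 59 to 197 with 1 sample left out, and was 84, 88 and 59 without normal replicates 1, 4 and 5 and 78 and 71 without tumor replicates 1 and 2. Nrg1 stayed positive under all 25 alternatives. It missed the threshold with normexp (1.03), with signals raised to the detection floor of each array (1.91, added after the data were seen), within slides 1, 2 and 3 (3.92, 1.49 and 3.25) and, at 2.69 to 3.35 over the samples left out, without normal replicates 1, 2-3, 5 and 6 and without tumor replicates 1, 2, 4-6 and 5 (limma adjusted p = 0.0970, 0.0699, 0.115, 0.0520, 0.114, 0.116, 0.0797 and 0.0897 in that order). The difference of Egfr was -1.89 as the mean of its probes, past the threshold, and 0.029 within slide 2. Tgfa was 0.028 within slide 3. With 1 sample left out Hbegf ran from -0.36 to 0.014 (positive without normal replicate 2-3) and Erbb3 from -1.30 to 0.059 (positive without tumor replicate 3). The second Egfr probe ran from -3.30 to -2.48 and passed without tumor replicate 2, and it also passed with normexp (-1.29), with the detection floor (-2.12), with the stricter filter (-2.73), with 12 arrays (-2.82), in a model that held slide and sample name (-2.76) and with the trended and robust variance (-2.73). Areg and Erbb2 kept their sign and missed the threshold under every alternative that tested them. The filter of 6 of 6 arrays left Tgfa and Erbb2 untested, and the second Egfr probe met it through its normal arrays alone. Without any filter the median over all genes was -0.26, and relative to it Hbegf stood at 0.05 and the other members kept their sign. No paired analysis was possible because the labels pair no tumor sample with a normal one; replicate numbers were given in accession order. The causes of these shifts were not tested.

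Signal over background limits the values of Nrg1 and Erbb2, of Tgfa and of the second Egfr probe, each of which had several arrays at background. It leaves Egf, Ereg and Btc without a comparison. Areg and Erbb3 had 1 array each at background, normal replicate 2 and tumor replicate 3. The Erbb3 difference was 0.059 without tumor replicate 3 and -0.35 with signals raised to the detection floor of each array.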

Other observations

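Of the 16 groups of 5 samples behind the 8 member probes tested, 0 held a sample that stood apart by Dixon's 95% criterion (a gap above 0.71 of the range), although chance alone passes about 1 in 20. The low Erbb3 value of tumor replicate 3 and the high second Egfr value of tumor replicate 2 were within that criterion.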
